A study of Mus musculus with 18 samples.

Results

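The 10 genes described here, Krt7, Krt8, Krt18, Krt19, Cdh1, Epcam, Pax8, Wt1, Msln and Muc16, are those by which a pathologist would recognise an epithelial cell and a serous carcinoma of the ovary or fallopian tube. They were taken by gene name from a deposited table of 54532 mouse genes, and each name matched 1 gene. The series measured polyadenylated RNA in KPCA.B, a mouse cell line that its labels call high grade serous ovarian cancer. It asked how medium from senescent tumour cells changes transcription in neighbouring cells, and how the gene Ndufa5 bears on that. There were 18 libraries in 6 groups of 3. The labels call the 3 triplicates without naming separate cultures, and the p-values below therefore reflect library-to-library spread that may be technical.

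The groups crossed 3 hairpins with 2 media. Cells labelled Ndufa5 wild type carried a control hairpin (shControl), and those labelled Ndufa5 knockdown 1 and 2 carried shNdufa5_1 or shNdufa5_2, 2 hairpins against Ndufa5, which encodes an accessory subunit of the mitochondrial NADH dehydrogenase. All groups received a 1:1 mix of fresh growth medium, with 4% serum and 2 ng/mL EGF, and conditioned medium. The conditioned medium came from proliferating cells treated with the vehicle DMF (PCM) or from cells made senescent with the platinum drug cisplatin (SCM). The sources used here do not give the engineered alleles of the line, or whether the hairpin cells were clones or pools.

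Keratins 7, 8, 18 and 19 are the intermediate filament proteins of simple epithelia, and a filament is built from pairs of a type II chain (Krt7, Krt8) and a type I chain (Krt18, Krt19). Cdh1 encodes E-cadherin, which joins epithelial cells at adherens junctions, and Epcam encodes a membrane glycoprotein of epithelial cells. Both are known to be repressed by the zinc-finger factors of the Snail and Zeb families, which bind the E-box hexamer CACCTG or its reverse complement CAGGTG. Pax8 is the lineage transcription factor of Mullerian epithelium and Wt1 a factor found in serous carcinoma and in mesothelium. Msln (mesothelin) and Muc16 (the mucin that carries the CA-125 antigen) are surface proteins of serous carcinoma that bind each other.

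The promoters of Krt8, Krt18 and Epcam are shown because the first pair are neighbouring genes that moved together in these libraries, while Epcam stayed near 0. Krt8 and Krt18 lie on chromosome 15, with 23697 bases between the annotated genes. Each line gives the 250 bases before the RefSeq gene start (GRCm38.p6), 5′ to 3′ on the gene's strand, with every CACCTG or CAGGTG in capitals, so that either strand is read. The windows are chr15:102004343-102004592 on the minus strand for Krt8, chr15:102027966-102028215 on the plus strand for Krt18 and chr17:87635729-87635978 on the plus strand for Epcam.
Krt8: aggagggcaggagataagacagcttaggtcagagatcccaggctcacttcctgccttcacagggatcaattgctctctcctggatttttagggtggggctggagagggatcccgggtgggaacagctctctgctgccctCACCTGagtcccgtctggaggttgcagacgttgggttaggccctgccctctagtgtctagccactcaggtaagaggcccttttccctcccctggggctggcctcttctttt
Krt18: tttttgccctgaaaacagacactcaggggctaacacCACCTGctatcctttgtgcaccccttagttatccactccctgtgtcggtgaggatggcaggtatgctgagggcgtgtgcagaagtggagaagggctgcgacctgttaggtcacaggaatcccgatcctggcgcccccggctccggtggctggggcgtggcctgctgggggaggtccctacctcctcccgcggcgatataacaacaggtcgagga
Epcam: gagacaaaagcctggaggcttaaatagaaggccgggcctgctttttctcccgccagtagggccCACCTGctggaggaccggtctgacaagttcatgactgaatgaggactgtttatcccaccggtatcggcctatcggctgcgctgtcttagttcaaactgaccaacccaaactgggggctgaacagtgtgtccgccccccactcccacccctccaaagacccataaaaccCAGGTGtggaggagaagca
Counting -1 as the last base before the gene start, the Krt8 hexamer begins at -111, that of Krt18 at -214 and the 2 of Epcam at -187 and -19. Windows were found for 6 of the 10 genes, and 4 of these held a hexamer (Krt7, Krt8, Krt18 and Epcam, with none in Pax8 and Muc16), against 17.2% of 32817 RefSeq windows of this length. The annotations place some starts differently: by the GENCODE positions given next, the whole Krt7 window and the Krt8 hexamer lie inside those genes, and the hexamers of Krt18 and Epcam lie before them. The abundant Krt18 and the nearly silent Epcam thus both carried these letters, which describe the sequence and not binding. By GENCODE vM21 on GRCm38, the 4 keratin genes lie at chr15:101411043-101430313 (Krt7), chr15:101996698-102004482 (Krt8), chr15:102028180-102032027 (Krt18) and chr11:100140810-100148665 (Krt19). Pax8 lies at chr2:24420560-24475599, Wt1 at chr2:105126529-105173616, Msln at chr17:25748613-25754378, Epcam at chr17:87635979-87651129, Cdh1 at chr8:106603351-106670246 and Muc16 at chr9:18495455-18674530.

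Values are FPKM, fragments scaled to gene length and to a library factor. That factor was not the library's fragment total. In shControl in SCM, replicate 1 had 15.2 M fragments and a denominator of 13.4 M. In shControl in PCM, replicate 1 had 15.3 M fragments and a denominator of 15.9 M. The median ratio of a library's values to the geometric mean over libraries was 1.008 in each of the 18. The deposited values thus already had equal median ratios. The recovered depth was 13.8 to 38.9 M fragments per library, replicates correlated at r = 0.979 to 0.99 on the log2 scale, and 10987 to 11239 genes per library were above FPKM 1. Ndufa5, the targeted gene, was at 15.2, 19.0 and 22.1 FPKM in shControl in PCM, 6.23 to 6.85 in shNdufa5_1 in PCM and 16.8 to 18.7 in the libraries labelled shNdufa5_2 in PCM. In SCM, in the same order of hairpins, it was at 20.9 to 26.2, 6.23 to 6.78 and 14.6 to 20.2 FPKM. Ndufa5 therefore stood at 34.6% and 28.0% of shControl with shNdufa5_1 in PCM and SCM. It stood at 93.4% (limma adjusted p = 0.647) and 73.4% (limma adjusted p = 0.0125) in the libraries labelled shNdufa5_2, so a difference in those libraries cannot be read as that of a strong knockdown.

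Of the 10 genes, 6 had a mean of at least 1 FPKM over the 18 libraries and entered the tests: the 4 keratins, Msln and Pax8. Epcam, Wt1 and Muc16 stayed under FPKM 1 in all 18 libraries, and Cdh1 did so in 15, being above 1 only in the 3 shNdufa5_1 libraries in SCM. The epithelial label of the line thus showed in its simple keratins and not in Epcam or, outside 1 group, in E-cadherin. Its serous label showed in Pax8 and Msln, while Wt1 and Muc16 were listed at 0. In bulk RNA, fewer cells expressing a gene and less RNA per cell cannot be told apart.

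**Figure D1:**
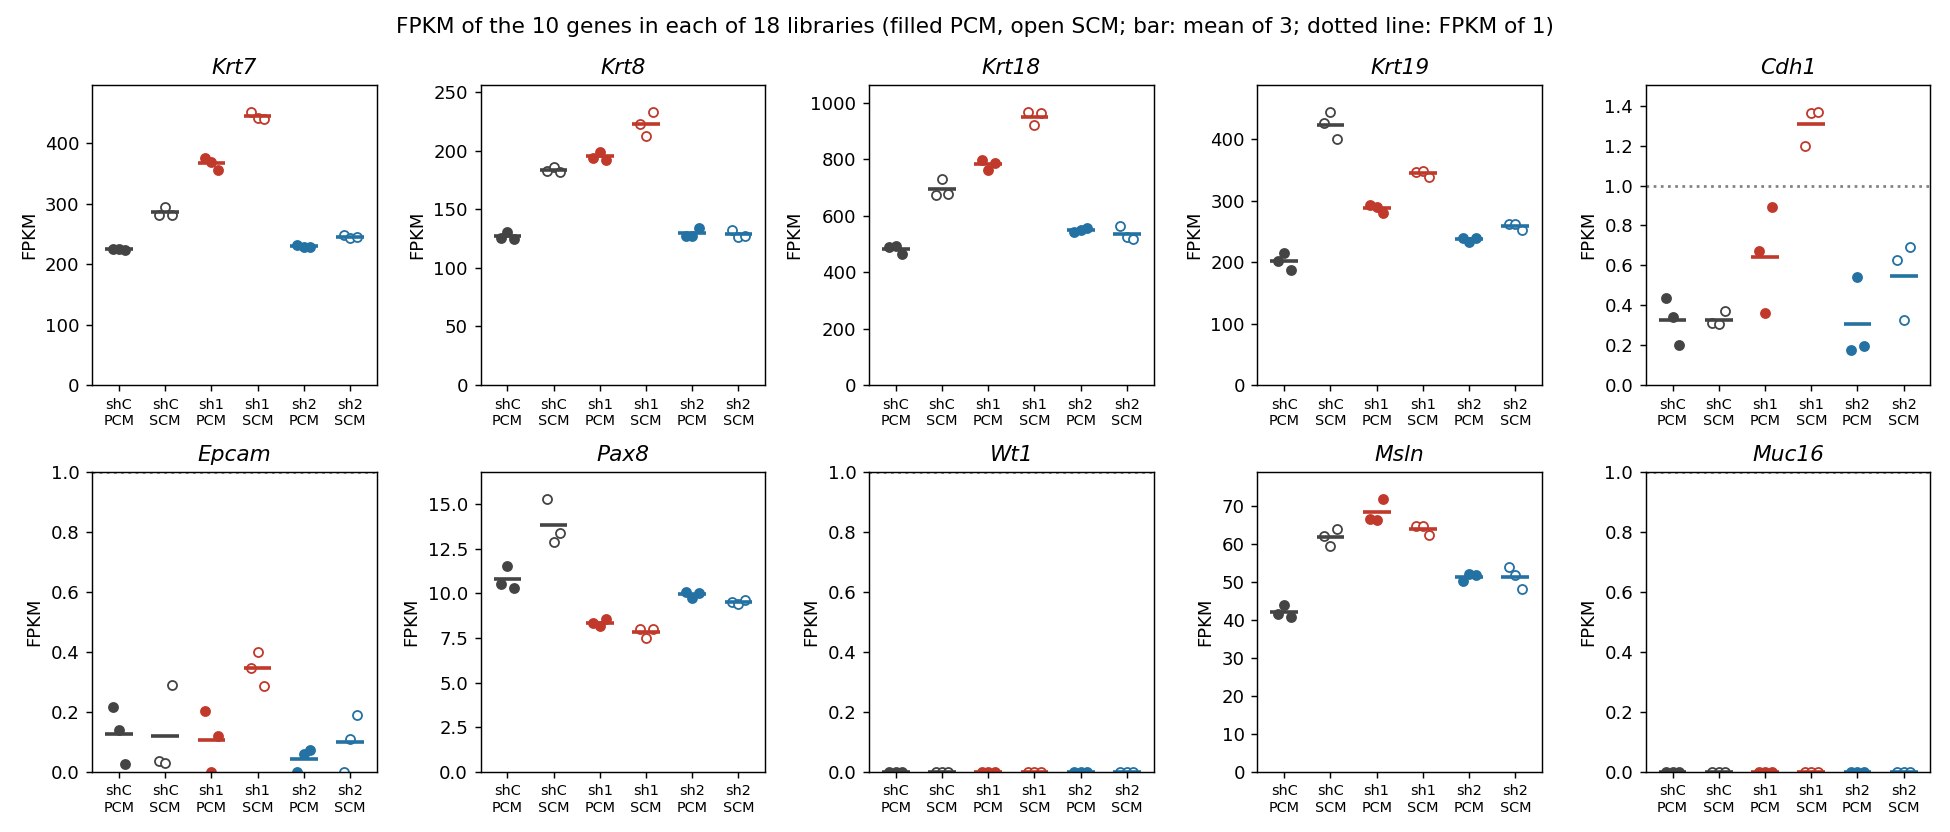
Each panel plots 1 gene's FPKM (vertical axis, from 0) in the 18 libraries, with filled points for PCM and open points for SCM, black for shControl (shC), red for shNdufa5_1 (sh1) and blue for shNdufa5_2 (sh2), and a bar at the mean of 3. The 4 keratins, Msln and Pax8 lie far above FPKM 1, Cdh1 passes it only in the 3 shNdufa5_1 libraries in SCM, Epcam reaches at most 0.399, and Wt1 and Muc16 lie at 0.

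By mean FPKM over all libraries, which is a level per length of gene, Krt18 led with 665, followed by Krt7 with 299, Krt19 with 292, Krt8 with 165, Msln with 56.5 and Pax8 with 10.05. Krt18 ranked 43rd among all genes of the table and Pax8, the lowest of those tested, 5045th. A level per length depends on the gene length used, and the exons of Krt7 together span 7049 bases and its longest coding transcript 4094. Rescaled to the longest coding transcript, the means were 515 for Krt7, 344 for Krt19, 80.0 for Msln and 23.8 for Pax8, and the order of the 6 genes was kept. As deposited, Krt7 and Krt19 are neighbours whose group means covered nearly the same range (224 to 444 and 201 to 423), and their means differ by less than that spread.

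Krt18, the type I partner of Krt8, was at 488, 492 and 462 FPKM in shControl in PCM and at 797, 761 and 787 with shNdufa5_1 in PCM. In SCM it was at 674, 729 and 677 in shControl and at 966, 919.6 and 963 with shNdufa5_1. Values of 542, 547 and 555 in PCM and 562, 526 and 515 in SCM were those of the libraries labelled shNdufa5_2. All shNdufa5_1 values were above all shControl values of the same medium, and the libraries labelled shNdufa5_2 were the only group pair whose media overlapped.

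Krt8 repeated that order at a lower level. It was at 126, 131 and 125 FPKM in shControl in PCM, 194, 199 and 193 with shNdufa5_1 in PCM, with 128, 127 and 134 in libraries labelled shNdufa5_2 in PCM. In SCM, in the same order of hairpins, the values were 182, 186 and 182, then 223, 213 and 233, then 133, 126 and 127. The lowest groups, shControl in PCM and the libraries labelled shNdufa5_2 in either medium, overlapped each other.

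Krt7, the other type II chain, was at 226, 224 and 223 FPKM in shControl in PCM and at 232, 228 and 228 in the libraries labelled shNdufa5_2 in PCM. With shNdufa5_1 it was at 375, 368 and 356 in PCM and at 451, 442 and 439 in SCM, the highest of the 6 groups. In SCM it was at 282, 295 and 281 in shControl and at 248, 244 and 244 in the libraries labelled shNdufa5_2. No 2 groups overlapped, but the step between the lowest groups, shControl and shNdufa5_2 in PCM, was 0.03 on the log2 scale (95% interval -0.02 to 0.09) and was not called.

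Krt19, a short type I keratin, ordered the groups differently. It was at 202, 214 and 187 FPKM in shControl in PCM and at 426, 444 and 399.8 in shControl in SCM, which was the highest group for this gene. With shNdufa5_1 it was at 294, 289.8 and 279.7 in PCM and at 346, 348 and 339 in SCM. Above shControl in PCM and below all shNdufa5_1 values were the libraries labelled shNdufa5_2, at 239, 232 and 239 in PCM and at 262, 261 and 253 in SCM. The 6 groups did not overlap.

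Msln was at 41.5, 43.9 and 40.7 FPKM in shControl in PCM, below every other library. It was at 62.1, 59.5 and 63.9 in shControl in SCM, at 66.7, 66.4 and 71.9 with shNdufa5_1 in PCM and at 64.9, 64.8 and 62.5 with shNdufa5_1 in SCM. The libraries labelled shNdufa5_2 were at 50.4, 52.1 and 51.8 in PCM and 53.9, 51.8 and 48.1 in SCM. The media overlapped in those libraries, and shControl and shNdufa5_1 overlapped in SCM.

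Pax8, unlike the other 5 genes, was lower with shNdufa5_1 than in shControl in PCM. It was at 10.5, 11.6 and 10.3 FPKM in shControl in PCM and at 15.3, 12.9 and 13.4 in shControl in SCM, the highest group. With shNdufa5_1 it was at 8.32, 8.19 and 8.55 in PCM and at 8.02, 7.49 and 8.01 in SCM, the lowest groups. The libraries labelled shNdufa5_2 lay between, at 9.77 to 10.1 in PCM and at 9.49, 9.43 and 9.60 in SCM.

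With shNdufa5_1 in PCM, the 4 keratins and Msln rose and Pax8 fell. Differences are of log2(FPKM + 1) from a limma fit over all 11084 tested genes, called at a Benjamini-Hochberg adjusted p under 0.05. Krt7 was higher by 0.71 ± 0.03 (SE, n = 3 libraries a group), Krt18 by 0.70 ± 0.04, Msln by 0.69 ± 0.04, Krt8 by 0.61 ± 0.03 and Krt19 by 0.52 ± 0.04, and Pax8 was at -0.33 ± 0.06. The least of these calls was that of Pax8, with a limma adjusted p of 0.000128. In this contrast 52.7% of all tested genes were called, 25.6% higher and 27.1% lower, and the 5 higher and 1 lower among the 6 are to be read against that. The median difference was 0.65 over the 6 genes and -0.01 over all genes. All 6 calls held their direction under each of the other scalings and with each library left out. For each of the 6 the groups did not overlap (exact permutation p = 0.1 on FPKM, the smallest that 3 against 3 libraries allow). How many of all tested genes were without overlap was not counted, so this adds nothing to the calls.

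In SCM the shNdufa5_1 libraries were again higher than shControl for Krt7 (0.63 ± 0.03), Krt18 (0.45 ± 0.04) and Krt8 (0.28 ± 0.03) and lower for Pax8 (-0.75 ± 0.06), under every scaling tried. Krt19 was lower as deposited (-0.30 ± 0.04) but turned to 0.06 with the GC and length trend removed, 0.13 with equal FPKM totals and 0.34 with quantile normalization. Msln differed by 0.05 ± 0.04 (95% interval -0.05 to 0.14) and was not called as deposited, while it was called higher under the 4 other scalings (0.24 to 0.47). Of the 6 genes 3 were thus called higher and 2 lower, where 59.8% of all genes were called (28.7% higher, 31.1% lower). The splits were 4 to 1 with equal FPKM totals and with the GC and length trend removed, 4 to 2 with equal fragment totals and 5 to 1 with quantile normalization. Here and below, the shares of all genes called under these other scalings were not counted, so such splits have no background beside them. The median difference was 0.16 over the 6 genes and 0 over all genes, and equal FPKM totals moved the latter to 0.34.

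With the label shNdufa5_2 fewer of the genes were called in PCM, and the difference between hairpins was not tested. Of the 6 genes 3 were called higher than in shControl in PCM, Msln (0.29 ± 0.04), Krt19 (0.24 ± 0.04) and Krt18 (0.19 ± 0.04), and none lower, against 35.6% of all genes called (19.3% higher, 16.3% lower). These directions did not hold across scalings: Msln turned to -0.06, Krt19 to -0.12 and Krt18 to -0.17 with equal FPKM totals, and Krt18 to -0.18 with quantile normalization. The splits there were 0 to 3 with equal FPKM totals, 3 to 2 with equal fragment totals, 1 to 3 with quantile normalization and 1 to 1 with the GC and length trend removed. The shares of all genes above are not those of these scalings. The median difference was 0.11 over the 6 genes and 0.01 over all genes, and equal FPKM totals moved the latter to -0.30.

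In SCM all 6 genes were lower in the libraries labelled shNdufa5_2 than in shControl, where 33.9% of all genes were called (13.9% higher, 20% lower). Krt19 was at -0.71 ± 0.04, Krt8 at -0.51 ± 0.03, Pax8 at -0.50 ± 0.06, Krt18 at -0.38 ± 0.04, Msln at -0.27 ± 0.04 and Krt7 at -0.22 ± 0.03, except that Krt7 turned to 0.07 with equal FPKM totals and 0.02 with quantile normalization, and Msln to 0.02 with equal FPKM totals. With equal FPKM totals only Krt19 and Krt8 remained called, 0 higher and 2 lower, and the share of all genes under that scaling was not counted. The median difference was -0.44 over the 6 genes and -0.01 over all genes, and equal FPKM totals moved the latter to 0.23. The comparisons of the 2 hairpins share their shControl libraries.

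**Figure D2:**
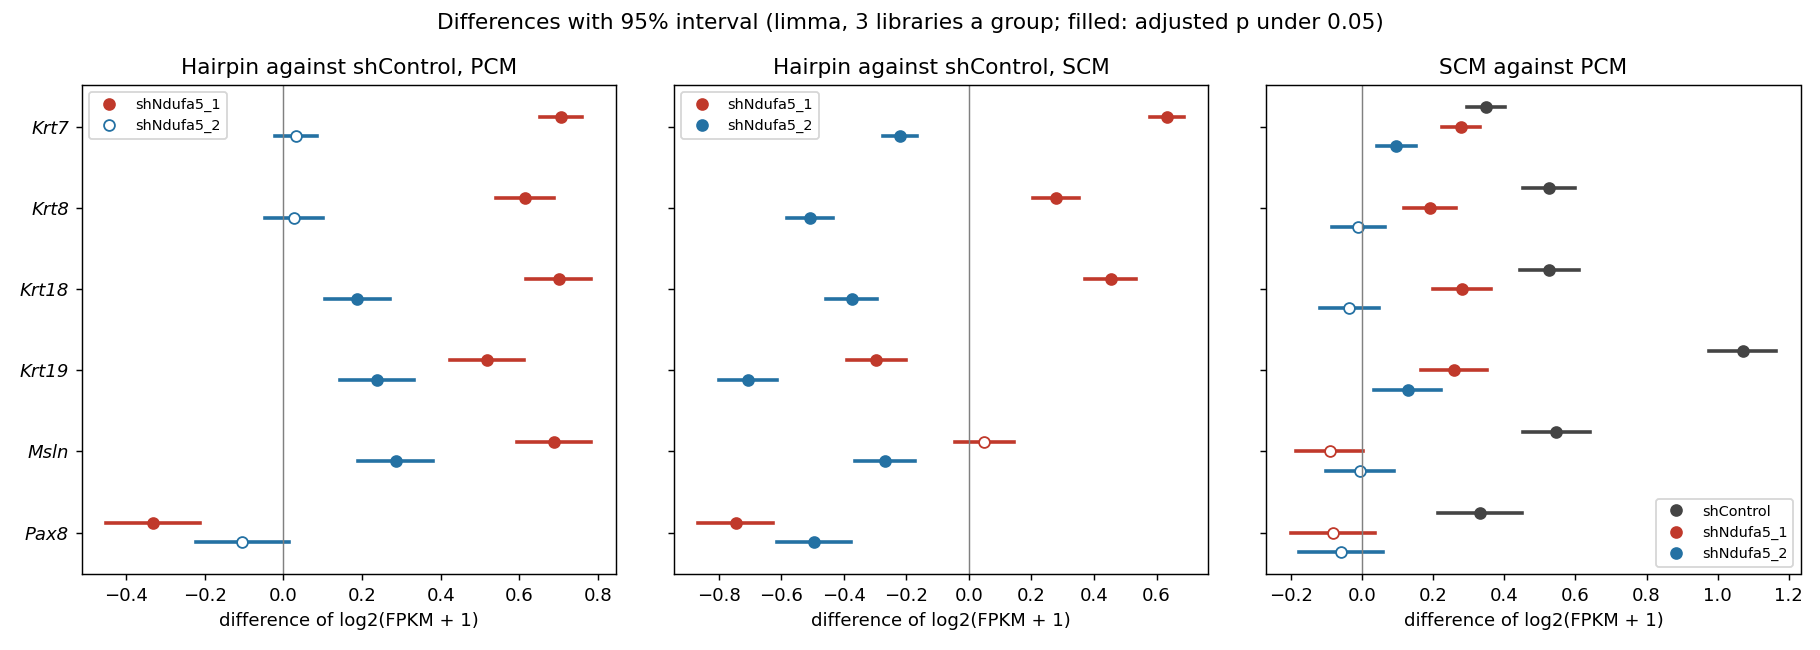
Each point is a difference of log2(FPKM + 1) (horizontal axis) with its 95% interval from limma, for the 6 tested genes, filled where the adjusted p is under 0.05, on the deposited scale. In PCM shNdufa5_1 (red) lies between 0.52 and 0.71 for 5 genes and at -0.33 for Pax8; in SCM shNdufa5_2 (blue) lies below 0 for all 6, a direction that Krt7 and Msln lose under another scaling; shControl (black) lies above 0 for all 6 in SCM against PCM, a direction that only Krt19 keeps under every scaling.

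Within shControl the 6 tested genes also differed by medium, but only Krt19 did so in 1 direction under every scaling. On the deposited scale all 6 were higher in SCM than in PCM, Krt19 by 1.07 ± 0.04, Msln by 0.55 ± 0.04, Krt18 and Krt8 each by 0.53 (SE 0.04 and 0.03), Krt7 by 0.35 ± 0.03 and Pax8 by 0.33 ± 0.06, but 5 of them turned under another scaling. Equal FPKM totals gave -0.26 for Krt7, -0.23 for Pax8, -0.08 for Krt8, -0.08 for Krt18 and -0.05 for Msln, and quantile normalization gave -0.23 for Krt7 and -0.21 for Krt18. Krt19 was called higher throughout, at 0.42 to 1.07. The background was 61.9% of all genes called, 31.7% higher and 30.2% lower, the member median 0.53 and the median of all genes 0.

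The scalings also moved the median of all genes. Equal FPKM totals moved the median of all genes to -0.50 in this contrast and equal fragment totals to -0.20. The FPKM sums ran from 290242 to 484520, and Gm23935 alone held 5.13 to 27.07% of them. Relative to the shifted median the 6 genes stayed higher with equal FPKM totals, Krt19 by 0.96, Msln by 0.45, Krt8 and Krt18 each by 0.42, Pax8 by 0.27 and Krt7 by 0.24. Quantile normalization leaves no such shift, and there Krt7 and Krt18, among the most abundant genes of the table, stayed below 0. The split of called members was 6 to 0 as deposited, 1 to 2 with equal FPKM totals, 5 to 0 with equal fragment totals and 3 to 2 with quantile normalization. Only the deposited split has a share of all genes to be read against.

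With either hairpin the estimated response of the 6 tested genes to SCM was smaller than in shControl on the deposited scale. For Krt7 with shNdufa5_1 that difference was not called. With shNdufa5_1, Krt18 (0.28 ± 0.04), Krt7 (0.28 ± 0.03), Krt19 (0.26 ± 0.04) and Krt8 (0.19 ± 0.03) rose, with Krt7 turning to -0.03 under quantile normalization and Krt8 to -0.01 there and to -0.0042 with the GC and length trend removed. Msln (-0.09, 95% interval -0.19 to 0.00) and Pax8 (-0.08, interval -0.20 to 0.04) were not called, where 42.3% of all genes were (22.5% higher, 19.8% lower). The splits were 4 to 0 as deposited, 4 to 1 with equal fragment totals, 0 to 1 with quantile normalization and 1 to 1 with the GC and length trend removed. These shares of all genes hold for the deposited scale only. Krt19 (0.13 ± 0.04) and Krt7 (0.10 ± 0.03) were called higher in the libraries labelled shNdufa5_2, against 22.8% of all genes (11.7% higher, 11.1% lower). Krt7 turned to -0.01 with quantile normalization, and Krt19, with a limma adjusted p of 0.0487, lost its call with any of the 6 libraries left out (adjusted p = 0.0594 to 0.143) and under the other scalings. The member medians were 0.22 and -0.01, and those of all genes 0.02 and 0.

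Whether the responses differed was tested as an interaction. Krt19 responded less to SCM with shNdufa5_1 than in shControl by -0.81 ± 0.06 and in the libraries labelled shNdufa5_2 by -0.94 ± 0.06, and both were called under every scaling and with every library left out. With shNdufa5_1, Msln (-0.64 ± 0.06), Pax8 (-0.41 ± 0.08), Krt8 (-0.34 ± 0.05) and Krt18 (-0.25 ± 0.05) were also lower, except that Krt18 turned to 0.31 and 0.30 with equal FPKM totals and quantile normalization, and Krt8 to 0.22 and Pax8 to 0.10 with equal FPKM totals. Krt7 (-0.07, 95% interval -0.15 to 0.00) was not called, and 26.2% of all genes were (10.7% higher, 15.5% lower). Relative to the median of all genes, which equal FPKM totals moved to 0.46, Krt18, Krt8 and Pax8 stayed lower there, at -0.15, -0.24 and -0.36.

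In the libraries labelled shNdufa5_2 the remaining interactions were -0.56 ± 0.05 for Krt18, -0.55 ± 0.06 for Msln, -0.54 ± 0.05 for Krt8, -0.39 ± 0.08 for Pax8 and -0.25 ± 0.04 for Krt7, each turning above 0 with equal FPKM totals (0.09 to 0.40) and Krt18 and Krt7 also with quantile normalization (0.05 and 0.22). All 6 genes were called on the deposited scale, against 43.0% of all genes (18.9% higher, 24.1% lower). Relative to the median of all genes, moved to 0.52 by equal FPKM totals, the same 5 values were -0.43, -0.43, -0.41, -0.31 and -0.12. The splits were 0 to 5 with shNdufa5_1 and 0 to 6 here as deposited, and 2 to 1 and 1 to 1 with equal FPKM totals and 2 to 3 and 1 to 3 with quantile normalization. Shares of all genes were counted on the deposited scale only. The member medians were -0.37 and -0.54, and those of all genes -0.01 and -0.03.

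**Figure D3:**
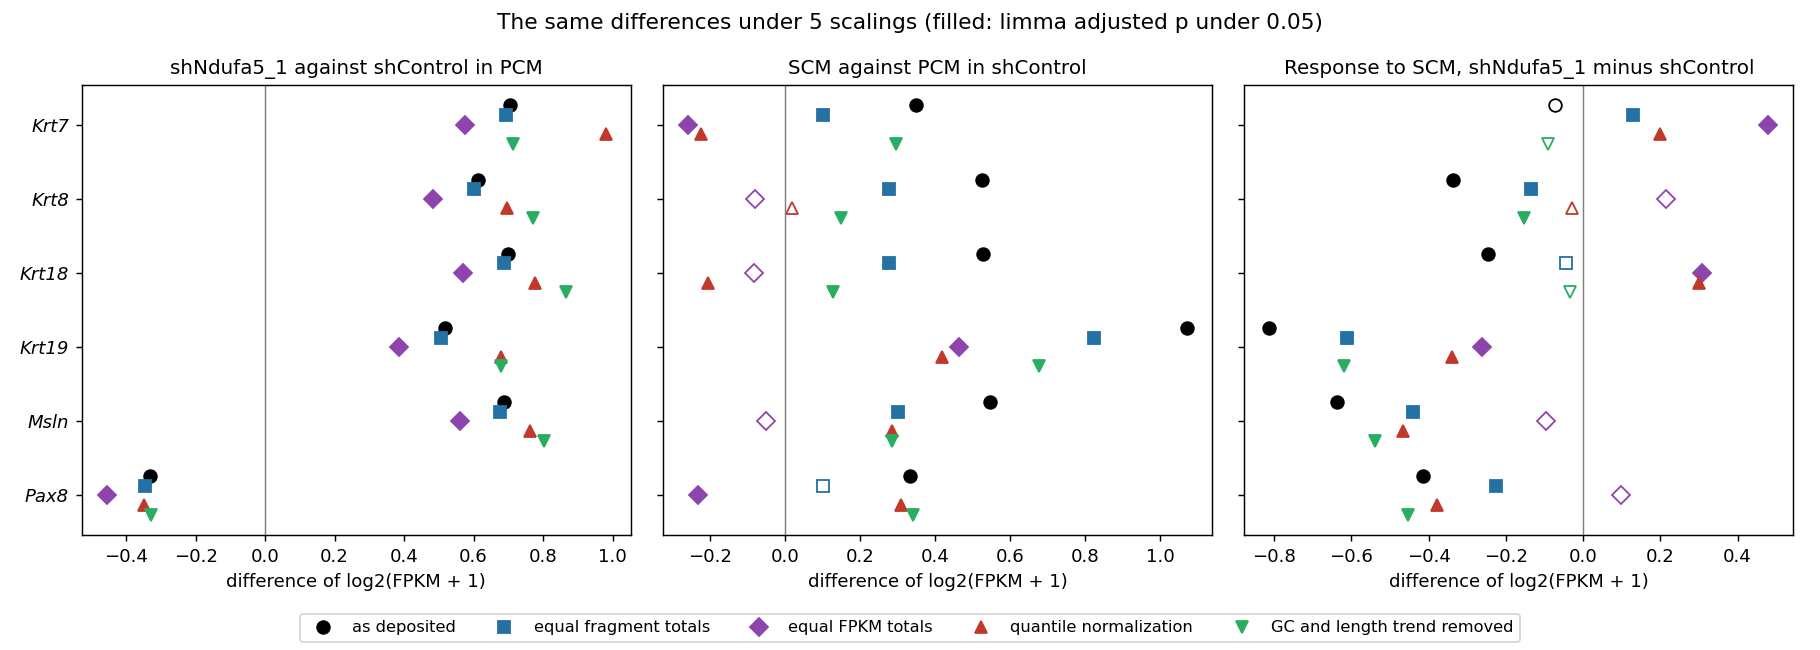
Each point is a difference of log2(FPKM + 1) (horizontal axis) for 1 gene under 1 of 5 scalings, filled where the limma adjusted p is under 0.05. In PCM shNdufa5_1 against shControl keeps its side of 0 for all 6 genes; for SCM against PCM in shControl only Krt19 (0.42 to 1.07) is on 1 side throughout; in the interaction of shNdufa5_1 only Krt19 and Msln stay below 0.

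Ratios of 2 genes within a library do not depend on a scaling factor common to all genes, although quantile normalization and GC or length trends act on them. The pairs were chosen after values were seen. Krt7 to Pax8 was 20.8 ± 1.23 (SD, n = 3) in shControl in PCM and 20.8 ± 2.23 in SCM, against 43.9 ± 1.99 and 56.7 ± 2.15 with shNdufa5_1, a difference of 2.11-fold and 2.73-fold (exact permutation p = 0.1, the smallest possible). In the libraries labelled shNdufa5_2 it was 23.0 ± 0.25 and 25.8 ± 0.36. Within shControl the 2 media overlapped in this ratio and differed 0.997-fold (exact permutation p = 1). In all, 21 differences of ratios were computed, and with a smallest p of 0.1 none can pass an adjustment.

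Krt19 to Krt18, both type I keratins, was 0.418 ± 0.02 in shControl in PCM and 0.610 ± 0.02 in SCM. It was 0.368 ± 0.01 and 0.363 ± 0.01 with shNdufa5_1, whose media overlapped (exact permutation p = 0.7), and 0.432 ± 0.01 and 0.485 ± 0.02 in the libraries labelled shNdufa5_2. SCM against PCM was thus 1.46-fold in shControl, 1.12-fold with shNdufa5_2 and 0.985-fold with shNdufa5_1. Krt18 to Krt8, the partners of one filament and neighbours in the genome, lay between 3.78 and 4.26 as group means.

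**Figure D4:**
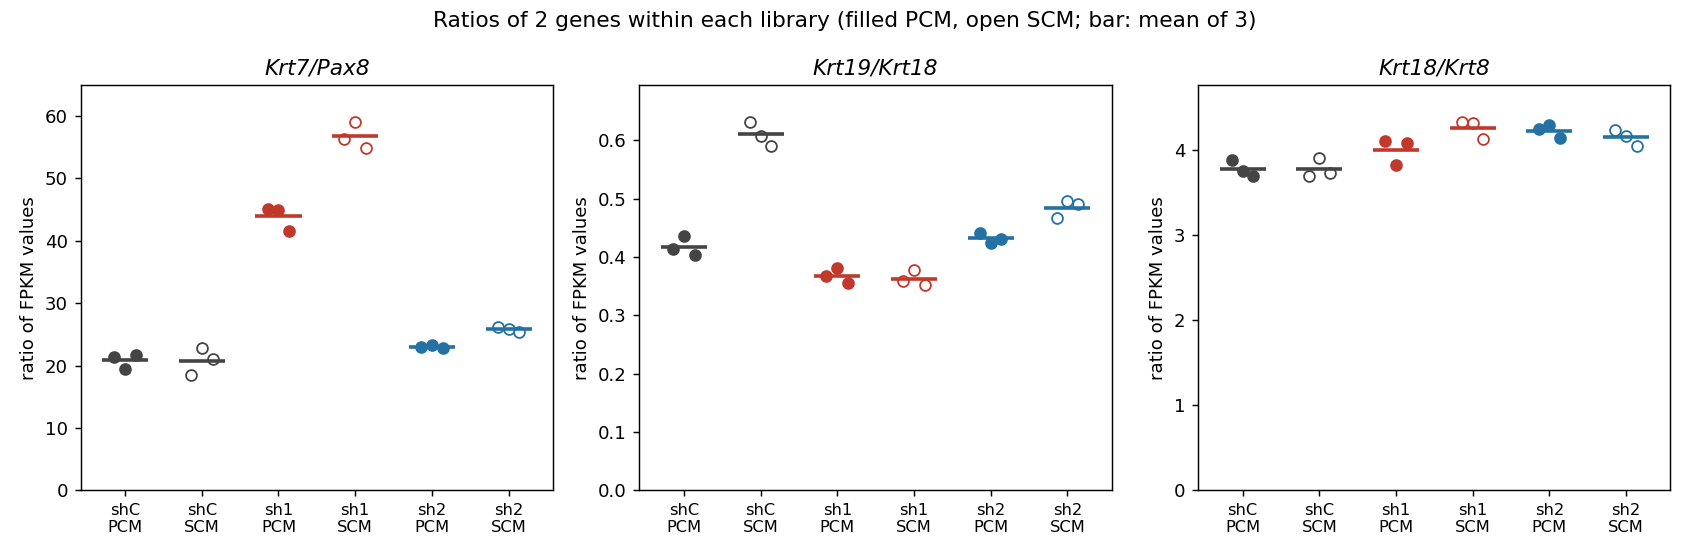
Each panel plots the ratio of the FPKM values of 2 genes (vertical axis, from 0) in each of the 18 libraries, with filled points for PCM, open points for SCM and a bar at the mean of 3. Krt7 to Pax8 separates shNdufa5_1 (43.9 and 56.7) from the other groups (20.8 to 25.8), Krt19 to Krt18 is highest in shControl in SCM (0.610), and Krt18 to Krt8 spans 3.78 to 4.26.

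Across the 18 libraries, which share their groups, the log2 values of Krt18 correlated with those of Krt7 and Krt8 at r = 0.97 each, and Krt7 with Krt8 at 0.95. Krt19 followed them less closely, at 0.61 with Krt7, 0.77 with Krt8 and 0.73 with Krt18. Pax8 ran against Krt7 at -0.56 and was at 0.23 with Krt19. Among the genes of the table most like each member by r over the 18 libraries were Pfkl and Dock8 for Krt7 (0.992 and 0.979), Ccnb1, Krt18 and Shmt2 for Krt8 (0.985, 0.974 and 0.971), and Tubb4b, Ccnd1 and G6pdx for Krt18 (0.987, 0.981 and 0.977). For Krt19 they were Tpi1, Thop1 and Ncaph2 (0.98, 0.972 and 0.967), for Pax8 Aimp2, Lrrc59 and Alg5 (0.948, 0.942 and 0.934) and for Msln Actg1, Tpx2 and Actb (0.97, 0.953 and 0.947). Of the genes named here, only Krt18, in the list of Krt8, is another of the 10.

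Cdh1 was low and moved with 1 group. Its fragments numbered 32, 55 and 17 in shControl in PCM, 19, 47 and 23 in shControl in SCM, 52, 26 and 67 with shNdufa5_1 in PCM, and 93, 130 and 107 with shNdufa5_1 in SCM. In FPKM these are 0.439, 0.342 and 0.201, then 0.309, 0.305 and 0.370, then 0.671, 0.360 and 0.893, then 1.20, 1.36 and 1.37. The libraries labelled shNdufa5_2 were at 0.175, 0.544 and 0.194 in PCM and at 0.627, 0.325 and 0.693 in SCM. The 3 shNdufa5_1 libraries in SCM stood above the other 15.

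In SCM Cdh1 was 3.99-fold higher with shNdufa5_1 than in shControl (exact permutation p = 0.1, the smallest possible), and 5.35-fold or 4.55-fold with equal FPKM or fragment totals. Without the filter on low values, limma over 25842 genes gave a difference of 0.80 ± 0.13 (SE; adjusted p = 0.000343), where 25% of genes were called. Within shNdufa5_1, SCM was 2.04-fold above PCM, a difference of 0.50 ± 0.13 in that fit (adjusted p = 0.0184, with 16% of genes called). The interaction was 0.50 ± 0.19 (95% interval 0.09 to 0.91, adjusted p = 0.145), so that the response of Cdh1 to SCM was not shown to differ between shNdufa5_1 and shControl. In the other contrasts Cdh1 was not called, with adjusted p from 0.158 to 1. The scale log2(FPKM + 1) understates folds at this level.

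Epcam was read from 0 to 17 fragments per library. It was at 0.215, 0.139 and 0.0265 FPKM in shControl in PCM and at 0.0365, 0.0291 and 0.289 in SCM, a spread as wide as the level. With shNdufa5_1 it was at 0.202, 0 and 0.120 in PCM and at 0.347, 0.399 and 0.287 in SCM. With shNdufa5_2 as the label, Epcam was at 0, 0.0595 and 0.0725 in PCM and at 0, 0.108 and 0.189 in SCM. Epcam in SCM with shNdufa5_1 differed from shControl by 0.27 ± 0.10 (limma without the filter, adjusted p = 0.0508), with 1 shControl library at the height of the shNdufa5_1 group, and it passed the threshold in no contrast.

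Wt1 and Muc16 were listed at 0 in all 18 libraries. For Wt1, 3 fragments, the most that a count of 0 allows at 95%, would be 0.0138 to 0.0374 FPKM per library by depth, and 0.00148 over all 335.4 M fragments. For Muc16, whose exons span 26350 bases, they would be 0.00324 to 0.0088 per library. These limits cover counting error only. None of 10 widely used genes was at 0 in any library, the lowest being at 2.46 FPKM. Gapdh, not among them, has many near-identical copies in the mouse genome and was at 1.66 to 61.2, with a median of 2.48. Whether reads that fall on copies shaped its values was not tested, and genes with such copies remain uncertain. Wt1os, the antisense neighbour of Wt1, was also at 0, and Krt8-ps, a copy of Krt8, was at no more than 0.642 FPKM.

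The rest of the epithelial programme lay on both sides of FPKM 1 as well. Of 59 other junction, keratin and regulator genes, 25 had a mean of at least 1 FPKM and 33 stayed below 1 in every library. Claudin 3 (Cldn3, a tight junction strand protein) had a mean of 87.2, the alpha-catenin Ctnna1 109, the junctional molecule F11r 59.6, the laminin receptor chain Itga6 58.6 and the epithelial factor Elf3 12.7. The regulators Grhl2, Esrp1 and Ovol2 were at 0.0583, 0.0051 and 0.00234, and the keratins of stratified epithelium Krt5 and Krt14 at 0.0313 and 0.0285. Factors of the Snail and Zeb families were present, Snai2 at 15.3, Zeb1 at 8.66, Zeb2 at 3.71 and Snai1 at 2.00, as were Vim at 427 and Fn1 at 1111. Binding of these factors to the promoters shown above was not measured.

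Of 30 other Mullerian and ovarian carcinoma genes 18 were tested. The secreted proteins Spp1 and Wfdc2 (the HE4 antigen) had means of 2092 and 208, Sox9 46.0, Gata4 20.3, the progesterone receptor Pgr 13.99, Emx2 9.74 and Pax2 3.33, while Lhx1, Hoxa11, Cldn16 and Klk8 were at 0. Msln and Wt1 are also mesothelial genes, and of 12 further mesothelial markers only Cav1 and Pdpn were tested, with Calb2, Gpm6a, Nkain4 and Upk1b at 0 and Upk3b and Lrrn4 at 0.014 and 0.00787. Of 24 markers of immune, endothelial, fibroblast and ovarian stroma cells 5 were tested, with Cd3e, Itgam, Thy1, Foxl2 and Fshr at 0. The summed level of that list was 15.5 to 15.9 FPKM in shControl in PCM, 22.7 to 24.2 in shControl in SCM, 15.2 to 16.9 and 19.6 to 20.6 with shNdufa5_1 in PCM and SCM, and 23.5 to 26.2 and 27.8 to 30.4 with the label shNdufa5_2 in PCM and SCM. That of the mesothelial list was 87.8 to 93.9 and 109.1 to 116.1 FPKM in shControl in PCM and SCM, 89.0 to 97.4 and 92.7 to 97.0 with shNdufa5_1, and 103.7 to 107.5 and 108.3 to 113.4 with the label shNdufa5_2. The part of these markers in the differences above was not tested, and Cd14, the gene of highest level in the list of other cell types, had a mean of 7.38 FPKM.

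**Figure D5:**
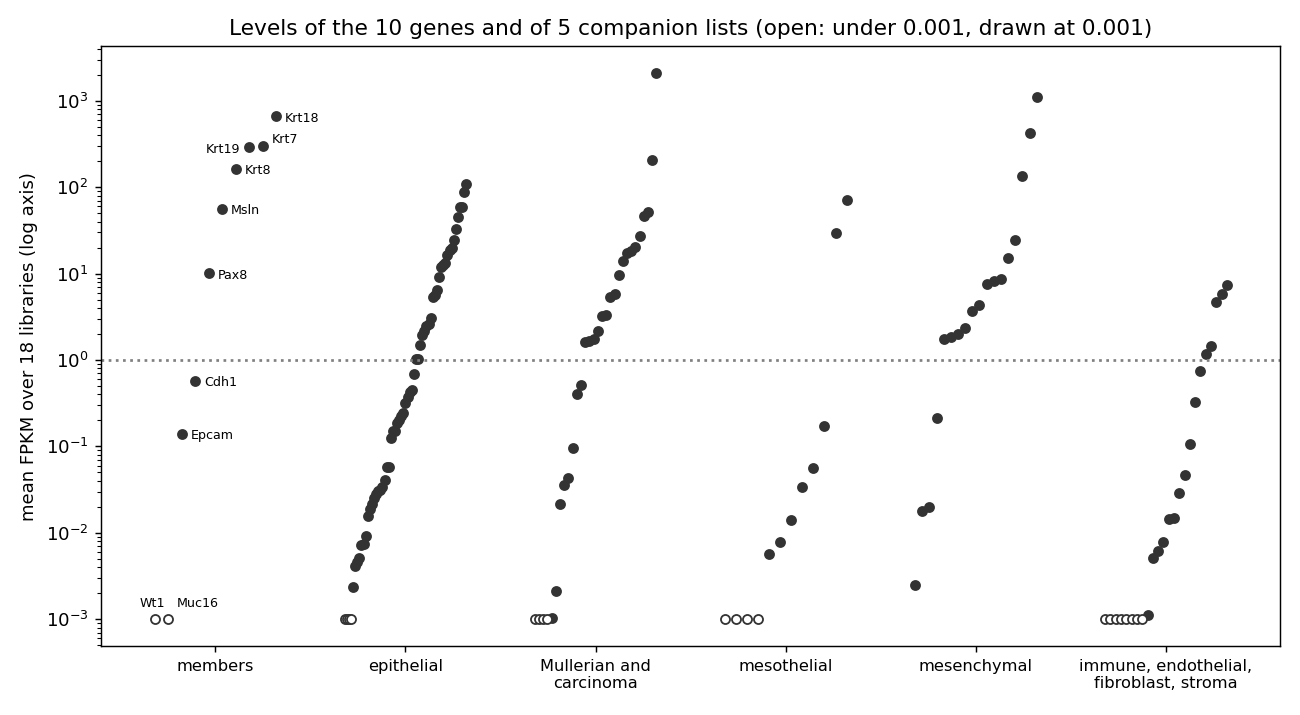
Each point is the mean FPKM of 1 gene over 18 libraries (vertical log axis), for the 10 genes and the 5 companion lists, with a dotted line at FPKM 1 and open points for genes under 0.001. The members run from 665 (Krt18) to 0 (Wt1, Muc16), and each companion list has genes on both sides of FPKM 1.

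Of the 25 other epithelial genes tested, 9 were higher and 3 lower with shNdufa5_1 in PCM, where 25.6% and 27.1% of all genes were (6 and 3 with equal FPKM totals, 12 and 4 with the GC and length trend removed), with a median of 0.09. Itga6 rose by 1.20 ± 0.03, the plakin Ppl by 0.83 ± 0.12 and Ctnna1 by 0.69 ± 0.03, and Cldn3 fell to a difference of -0.66 ± 0.06, each on the same side under the 4 other scalings. In SCM against PCM in shControl 9 were higher and 5 lower, where 31.7% and 30.2% of all genes were on the deposited scale. Equal FPKM totals, which moved the median of all genes to -0.50, gave 0 and 17. Equal fragment totals, which moved it to -0.20, gave 3 and 10. The counts were 4 and 6 with the GC and length trend removed and 6 and 6 with quantile normalization. In this contrast, as deposited, the tight junction scaffold Tjp1 was at -0.74 ± 0.04. Lad1 (0.67 ± 0.05) and the protease inhibitors Spint2 (0.64 ± 0.05) and Spint1 (0.50 ± 0.13) were higher. With the label shNdufa5_2 in PCM 5 were higher and 3 lower, against 19.3% and 16.3% of all genes. Spint2 was at 0.40, Spint1 at 0.39, Tjp1 at -0.37 and Krt80 at -0.34. Equal FPKM totals, which moved the median of all genes to -0.30 in that contrast, gave 0 and 14. All shares of all genes in this paragraph are those of the deposited scale.

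Among the 18 other Mullerian and ovarian carcinoma genes tested, 7 were higher and 4 lower with shNdufa5_1 in PCM, against 25.6% and 27.1% of all genes. The counts were 5 and 5 with equal FPKM totals and 9 and 3 with the GC and length trend removed. Spp1 was at 0.71 ± 0.04, Cp at 0.66 ± 0.05, Pgr at 0.56 ± 0.05 and Gata6 at -0.50 ± 0.11. In SCM against PCM in shControl 6 were higher and 5 lower, against 31.7% and 30.2% of all genes (1 and 12 with equal FPKM totals), Wfdc2 at 0.98 ± 0.05, Bcam at 0.72 ± 0.06, Cp at 0.61 ± 0.05 and Spp1 at 0.55 ± 0.04, where Spp1 turned to -0.06 with equal FPKM totals and -0.30 with quantile normalization. In PCM libraries labelled shNdufa5_2, 4 were higher and 4 lower, against 19.3% and 16.3% of all genes (0 and 14 with equal FPKM totals), Sox17 at -0.73 ± 0.12, Mal at -0.45 ± 0.11, Pgr at -0.44 ± 0.05 and Wfdc2 at 0.25 ± 0.05, which turned to -0.10 with equal FPKM totals. Pgr was thus higher with the first hairpin, at 19.5 to 21.2 FPKM, and lower with the other, at 9.19 to 10.1, than in shControl, at 12.7 to 14.3. The shares of all genes given here are those of the deposited scale. Equal FPKM totals moved the median of all genes to -0.50 in SCM against PCM in shControl. In PCM they moved it to -0.12 with shNdufa5_1 and to -0.30 with the label shNdufa5_2.

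Of the 14 mesenchymal markers tested, with shNdufa5_1 in PCM 3 rose, Col3a1 (0.99 ± 0.06), Vim (0.61 ± 0.03) and Prrx1 (0.32 ± 0.07), and 3 fell, among them Zeb2 (-0.27 ± 0.07), with a median of -0.03, where 25.6% of all genes were higher and 27.1% lower. In SCM against PCM in shControl 7 were higher and 2 lower, against 31.7% and 30.2% of all genes (0 and 7 with equal FPKM totals), the repressor Snai2 at -0.89 ± 0.11, S100a4 at 0.86 ± 0.29, Sparc at 0.73 ± 0.03 and Vim at 0.71 ± 0.03. With equal FPKM totals S100a4, Sparc and Vim were not called (limma adjusted p = 0.161, 0.145 and 0.205). Nor was S100a4 with the GC and length trend removed (limma adjusted p = 0.0998). With quantile normalization Vim was at 0.0086 (limma adjusted p = 0.861). In SCM, where Cdh1 was highest with shNdufa5_1, Zeb1 was at 8.35 to 8.72 FPKM with that hairpin and 7.52 to 8.67 in shControl, which overlap. Zeb2 was lower there, at 2.32 to 2.47 against 3.12 to 3.74 in shControl, and below every library of the other groups. Snai2 was at 10.8 to 12.2 against 9.55 to 12.1, and Snai1 had a mean of 3.61 against 1.98. Their part in the level of Cdh1 was not tested. In the libraries labelled shNdufa5_2 in PCM 2 were higher and 3 lower, against 19.3% and 16.3% of all genes (0 and 7 with equal FPKM totals). Vim was at 0.35 ± 0.03, Snai2 at -0.30 ± 0.11, Zeb2 at -0.28 ± 0.07 and Col3a1 at 0.22 ± 0.06. Vim turned to -0.0025 and Col3a1 to -0.07 with equal FPKM totals, and Vim was not called with quantile normalization (limma adjusted p = 0.654). That scaling moved the median of all genes to -0.50 in SCM against PCM in shControl and to -0.30 here. The shares of all genes are those of the deposited scale.

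Both mesothelial markers tested were higher in SCM against PCM in shControl, where 31.7% of all genes were, Pdpn by 0.59 ± 0.04 and Cav1 by 0.18 ± 0.05. With equal FPKM totals Pdpn turned to -0.0018 and Cav1 to -0.42. Cav1 also turned to -0.06 and -0.11 with equal fragment totals and quantile normalization. With shNdufa5_1 in PCM Pdpn was at -0.14 ± 0.04, a call lost with the GC and length trend removed (limma adjusted p = 0.178) and with quantile normalization (0.0631). With the label shNdufa5_2 in PCM it was higher by 0.47 ± 0.04, and not called with equal FPKM totals (0.12, limma adjusted p = 0.193). Of the 5 other cell type markers tested, 4 were higher in SCM against PCM in shControl, where 31.7% of all genes were, Cd68 (1.28 ± 0.20), Plvap (0.65 ± 0.12), Dcn (0.32 ± 0.12) and Pdgfra (0.30 ± 0.10), of which Dcn and Pdgfra turned to -0.02 and -0.03 with equal FPKM totals. Cd68, a lysosomal membrane protein abundant in macrophages, had a mean of 2.10 FPKM in shControl in PCM and 6.54 in SCM, and 7.70 in the libraries labelled shNdufa5_2 in PCM, where its difference was 1.48 ± 0.20, that of Plvap 0.69 ± 0.12 and that of Dcn 0.41 ± 0.12. With shNdufa5_1 in PCM Plvap was at -0.53 ± 0.12, Cd14 at 0.48 ± 0.10 and Pdgfra at -0.35 ± 0.10.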

How the data were processed

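For 18 libraries the authors deposited 1 table of FPKM, fragments scaled to gene length and to a library factor that was not the fragment total. The median ratio of each library's values to the geometric mean over libraries was 1.008. The submitters' processing notes name STAR 2.6.1, DESeq2, GRCm38 and mm10. The sources used here do not state the counter, its strand setting or the gene lengths. Low FPKM values were whole multiples of a step (99.4 to 99.8% of values up to 20 fragments, within 0.1 fragments), which gave fragments and depth per library, 13.8 to 38.9 M. No count model was run.

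From the deposited values, log2(FPKM + 1) was fitted with limma 3.58.1 (R 4.3.3) over the 11084 genes whose mean FPKM reached 1, with 1 coefficient per group, a variance trend and no replicate block. There were 9 two-sided contrasts, each with Benjamini-Hochberg adjustment over all genes. The scale understates changes of low genes. Alternatives were a pseudocount of 0.1, no filter, equal totals of FPKM or of fragments (the latter chosen after seeing the data), quantile normalization, removal of GC and length trends, the replicate block, and leaving out each library. Exact permutation tests, two-sided, used FPKM.

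Positions are from GENCODE vM21 (GRCm38), which held 99.9% of the gene identifiers, and promoters from RefSeq. Named genes are the 10 members, Ndufa5, up to 4 called genes of largest difference per companion list in SCM against PCM in shControl and in each hairpin against shControl in PCM, and the 3 genes most correlated with each tested member. Of the genes that rule and the lists give, 2 are not reported here. Other genes of those lists are named for their level, and the levels by group of Pgr, Cd68, Zeb1, Zeb2, Snai1 and Snai2, the copies and the ratios were chosen after their values were seen. Members and lists were chosen with earlier results of these data known. Replicate numbers did not pair the libraries.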

Additional observations from a re-analysis of the deposited data

Results flagged for a closer look

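The response of a gene to SCM with a hairpin differed from its response in shControl, by the limma interaction, in 11 cases. These were 5 of the 6 tested genes with shNdufa5_1, where 26.2% of all genes were called. In the libraries labelled shNdufa5_2 they were all 6, where 43% of all genes were called. With shNdufa5_1 the interaction was -0.81 for Krt19, -0.64 for Msln, -0.41 for Pax8, -0.34 for Krt8 and -0.25 for Krt18 on the log2(FPKM + 1) scale. In the libraries labelled shNdufa5_2 it was -0.94 for Krt19, -0.56 for Krt18, -0.55 for Msln, -0.54 for Krt8, -0.39 for Pax8 and -0.25 for Krt7. Both values of Krt19 and the shNdufa5_1 value of Msln stayed below 0 under every scaling, and each of the other 8 turned above 0 with equal FPKM totals. That scaling moved the median of all genes to 0.46 with shNdufa5_1 and 0.52 with shNdufa5_2, and the 8 values stayed below it. Ndufa5 was at 93.4% and 73.4% of shControl in PCM and SCM in the libraries labelled shNdufa5_2. Whether the interactions differ between the hairpins was not tested, and both share the shControl libraries.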

How the results depend on the processing

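Values are differences of log2(FPKM + 1). With equal FPKM totals these turned: SCM against PCM in shControl, Krt18 -0.083, Krt7 -0.26, Krt8 -0.082, Msln -0.052 and Pax8 -0.23; SCM against PCM in the libraries labelled shNdufa5_2, Krt18 0.0048, Krt8 0.031 and Msln 0.034. In the same scaling shNdufa5_2 against shControl in PCM gave Krt18 -0.17, Krt19 -0.12, Krt7 -0.32, Krt8 -0.33 and Msln -0.065, and in SCM Krt7 0.073 and Msln 0.022, while shNdufa5_1 against shControl in SCM gave Krt19 0.13. Its interactions were 0.31 for Krt18, 0.48 for Krt7, 0.22 for Krt8 and 0.10 for Pax8 with shNdufa5_1, and 0.088 for Krt18, 0.40 for Krt7, 0.11 for Krt8, 0.086 for Msln and 0.21 for Pax8 with shNdufa5_2. Equal fragment totals turned shNdufa5_2 against shControl in PCM to -0.061 for Krt7 and -0.067 for Krt8, and the shNdufa5_1 interaction of Krt7 to 0.13. Quantile normalization turned SCM against PCM to -0.21 for Krt18 and -0.23 for Krt7 in shControl, -0.027 for Krt7 and -0.010 for Krt8 with shNdufa5_1, and -0.0094 for Krt7 with shNdufa5_2. It also gave -0.18 for Krt18, -0.20 for Krt7 and -0.19 for Krt8 in shNdufa5_2 against shControl in PCM, 0.020 for Krt7 in SCM, and 0.34 for Krt19 in shNdufa5_1 against shControl in SCM. Its interactions were 0.30 for Krt18 and 0.20 for Krt7 with shNdufa5_1, and 0.046 for Krt18 and 0.22 for Krt7 with shNdufa5_2. Removing the GC and length trend, with or without the replicate block, gave -0.0042 for Krt8 in SCM against PCM with shNdufa5_1, -0.13 for Krt8 in shNdufa5_2 against shControl in PCM and 0.060 for Krt19 in shNdufa5_1 against shControl in SCM. The cause was not tested beyond the shift of the median of all genes. The deposited values already had equal median ratios, and equal FPKM totals moved that median to between -0.50 and 0.52 depending on the contrast. Relative to it, every direction called on the deposited scale was kept under both kinds of equal totals. Directions not called as deposited were not all kept. Krt7 in the shNdufa5_1 interaction was -0.07 as deposited and 0.48 with equal FPKM totals, where the median of all genes was 0.46.

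The number of the 6 genes called changed as follows, given without the share of all genes called under each setting. In SCM against PCM in shControl it was 3 with equal FPKM totals in place of 6, and with shNdufa5_1 it was 1 with quantile normalization and 2 with the GC and length trend removed, with or without the replicate block, in place of 4. With shNdufa5_2 it was 0 with equal FPKM or fragment totals and 1 with no filter, quantile normalization or the GC and length trend removed, in place of 2, and 1 to 1 with each library left out. In shNdufa5_2 against shControl it was 5 with equal fragment totals in PCM in place of 3, and 2 with equal FPKM totals in SCM in place of 6. The interactions had 3 and 2 with equal FPKM totals in place of 5 and 6. Leaving out each library kept every other count. Among uncalled genes it turned SCM against PCM with shNdufa5_2 for Krt8, whose range was -0.033 to 0.013 (above 0 without PCM replicate 3 or SCM replicate 2), and Msln, whose range was -0.043 to 0.037 (above 0 without PCM replicate 2 or SCM replicate 3). The replicate block changed no call on the deposited scale: all 6 genes stayed called in SCM against PCM in shControl. Same-numbered libraries deviated from their group means with r from -0.093 to 0.065, and 1 of 18 correlated best with its own number. A pseudocount of 0.1 changed no call. Depth limits Cdh1 and Epcam, read from at most 130 and 17 fragments.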
